A study of Mus musculus and Homo sapiens with 56 samples.

Results

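The m6A peak lists of HEK293T cells with lowered ALKBH5 were set directly against those of HEK293T cells with lowered FTO, with no reference to the control hairpin in choosing the regions. Every peak of the 4 lists (2 per knockdown) was merged with the peaks it overlapped, which gave 26332 regions. Of these, 411 were held by both shALKBH5 lists and neither shFTO list, 661 by both shFTO lists and neither shALKBH5 list, and 11409 by all 4 lists. The lists come from 8 of the series' 56 samples, an immunoprecipitated and an input library for each list. The series sets RNA m6A beside the histone mark H3K9me2 in HEK293T cells and mouse embryonic stem cells.

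N6-methyladenosine (m6A) is the most common internal modification of messenger RNA and is written in the nucleus by the METTL3 and METTL14 complex. ALKBH5 and FTO are related dioxygenases that remove methyl groups from RNA. ALKBH5 acts on m6A in nuclear RNA, while FTO acts on m6A and also on the methylated adenosine next to the cap of messenger and small nuclear RNAs. An m6A peak is a stretch of RNA that an antibody to m6A enriches over the input RNA, so a demethylase can be compared with another by the stretches that gain or lose a peak when each is lowered.

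HEK293T is an immortalised human embryonic kidney line. The shALKBH5 cells carried a lentiviral short hairpin RNA against ALKBH5 and the shFTO cells one against FTO, each with 2 lists, and both had been selected with puromycin, as had the shGFP control cells, whose hairpin is directed at GFP (2 lists). Each hairpin is known by its target alone, and the remaining level of ALKBH5 or FTO RNA in these cells was not analysed here, so the knockdowns were not checked. RNA was taken from chromatin, fragmented, precipitated with an antibody to m6A and made into stranded libraries. The labels do not say whether replicates came from separate cultures, so the spread between lists may be technical. No human gene annotation or genome sequence was used, and regions are given by their position in the build hg38 without a gene name.

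The lists differed in length between replicates more than between knockdowns. They held 16211 and 20665 peaks in shALKBH5 replicates 1 and 2, and 16305 and 22219 peaks in shFTO replicates 1 and 2. The peaks covered 10.9 and 13.4 megabases in shALKBH5 and 9.86 and 15.05 megabases in shFTO. Replicate 2 was the longer list in both knockdowns, and the ranges of the knockdowns overlapped. The median fold enrichment, the authors' value for the immunoprecipitate over its control at the summit of a peak, was 8.18 and 8.22 in shALKBH5 and 8.53 and 8.15 in shFTO. The shortest peak had 294 and 295 bases in the shALKBH5 lists, against 277 bases in both shFTO lists, so the narrowest peaks of the knockdowns differ by the floor of their lists. The number of reads behind a peak is not in these lists, and a region without a peak is one whose q did not pass in that list, which does not show that m6A was absent.

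Peaks of a list found a partner in the other list of the same knockdown about as often as in a list of the other knockdown. Of the peaks of shALKBH5 replicate 1, 86.9% overlapped a peak of shALKBH5 replicate 2 and 77.2% and 89.4% overlapped a peak of shFTO replicates 1 and 2. For shALKBH5 replicate 2 these shares were 68.6% in the other shALKBH5 list and 67.9% and 85.6% in shFTO replicates 1 and 2. Of the peaks of shFTO replicate 1, 92.7% overlapped shFTO replicate 2, against 79.1% and 88.3% for shALKBH5 replicates 1 and 2. Of the peaks of shFTO replicate 2, 64.4% overlapped shFTO replicate 1, against 64.0% and 76.9% for shALKBH5 replicates 1 and 2. For each of the 4 lists the highest share was found with the longest of the other lists, whichever knockdown that was.

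Regions split by knockdown were a small share of all regions. The 411 shALKBH5 regions are 1.56% of all regions and 3.05% of the 13492 regions that both shALKBH5 lists held. The 661 shFTO regions are 2.51% of all regions and 4.72% of the 14017 regions that both shFTO lists held. Regions in all 4 lists made up 43.3%, which is 84.6% of the regions in both shALKBH5 lists and 81.4% of those in both shFTO lists. There were 3046 regions held by 1 list of each knockdown, 3097 by a single shALKBH5 list and 4089 by a single shFTO list. The 3046 pool 4 pairings of lists, while the 411 and the 661 each rest on 1 pairing. Of the 3046, 677 and 2369 were in shALKBH5 replicates 1 and 2, and 323 and 2723 in shFTO replicates 1 and 2. Most thus fell to the longer list of each knockdown, so 3046 is not a like measure for 411 or 661. A further 1672 regions were in both shALKBH5 lists and 1 shFTO list, and 1947 in 1 shALKBH5 list and both shFTO lists. With every list cut to its 16211 highest peaks, the length of the shortest, the counts were 496 for shALKBH5 and 562 for shFTO, so the gap between the classes was smaller at equal length. The counts rest on every list: without shALKBH5 replicates 1 and 2 in turn there were 2551 and 1416 shALKBH5 regions and 1037 and 2263 shFTO regions, and without shFTO replicates 1 and 2 there were 593 and 1955 shALKBH5 regions and 4124 and 1365 shFTO regions. With 2 lists against 2, an exact permutation test over lists cannot go below a p of 0.333, and no test was made of these counts.

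**Figure D1:**
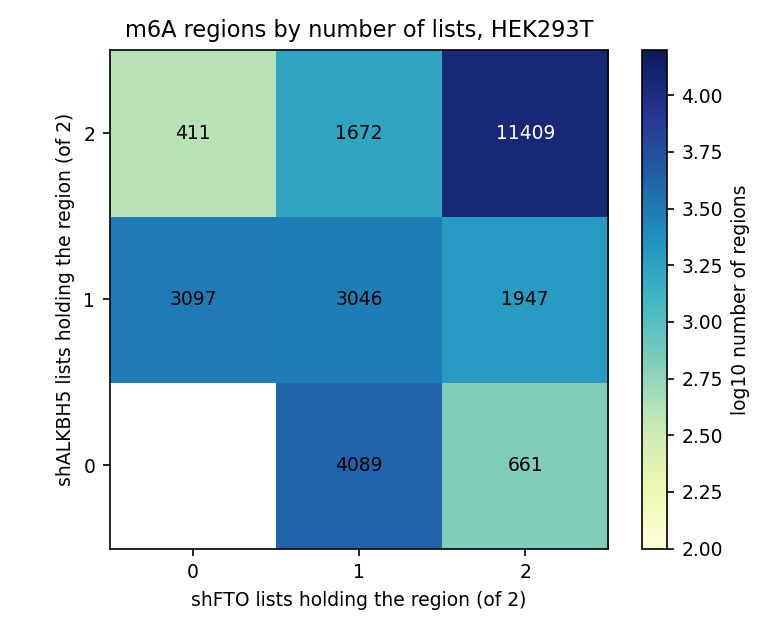
Number of m6A regions in HEK293T cells by how many shALKBH5 lists (vertical axis, 0 to 2) and how many shFTO lists (horizontal axis, 0 to 2) hold them, with shading on a log10 scale. The 2 corners of a clean split by knockdown hold 411 (both shALKBH5, no shFTO) and 661 regions (both shFTO, no shALKBH5), against 3046 in the middle and 11409 at the upper right.

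The regions of a single knockdown were weak and narrow. In the 411 shALKBH5 regions the median fold enrichment was 5.62 in replicate 1 and 5.79 in replicate 2, with quartiles of 4.78 to 6.65 and 4.94 to 6.82. These medians stood at the 21.0 and 24.1 percentiles of all peaks in their lists. In the 661 shFTO regions the median fold enrichment was 5.81 in replicate 1 and 6.25 in replicate 2, at the 19.9 and 30.6 percentiles. Regions in all 4 lists had medians of 10.3 and 12.1 in shALKBH5 and 10.6 and 12.2 in shFTO. A fold of 8 or more was reached by 10.5% and 10.9% of the shALKBH5 regions in their 2 lists, by 9.38% and 21.5% of the shFTO regions, and by 67.4% to 78.5% of the regions in all 4 lists. Both lists reached that level in 8 shALKBH5 regions and in 25 shFTO regions.

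Width followed the same order. The peaks covered a median of 338 and 332 bases in the shALKBH5 regions, against 302 and 369 bases in the shFTO regions. Exactly the shortest length of its list was found in 20.7% and 19.5% of the shALKBH5 regions in replicates 1 and 2, and in 29.0% and 10.7% of the shFTO regions. In regions held by all 4 lists that share was between 0.342% and 2.74%, and the median width ran from 607 to 768 bases. The fold values are coarse at this level: 710 peaks of shALKBH5 replicate 2 carry 1 and the same fold of 4.97, and 467 peaks of shFTO replicate 2 carry 6.06. Regions held by 1 list of each knockdown had medians of 5.49 and 5.79 in shALKBH5 and 5.53 and 6.06 in shFTO, close to those of a single knockdown. The classes were formed from peak calls that depend on enrichment, so these levels describe the classes and were not tested.

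**Figure D2:**
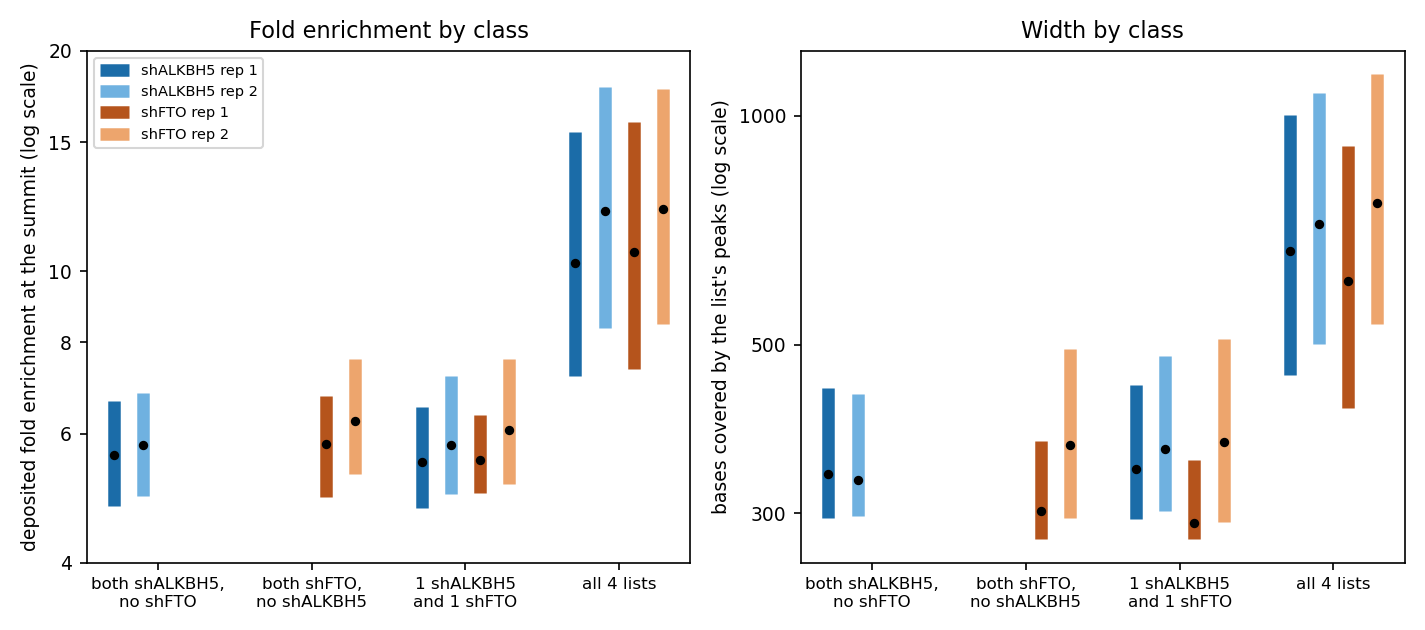
Deposited fold enrichment (left, log scale) and bases covered by peaks (right, log scale) for 4 classes of regions, where bars run from the lower to the upper quartile and points mark the median of each list. Regions of a single knockdown have medians of 5.62 to 6.25 fold, near those of regions in 1 list of each knockdown, and regions in all 4 lists have medians of 10.3 to 12.2.

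The strongest regions of shALKBH5 cells alone reached a middle rank at best. They were ordered by the poorer of their 2 percentile ranks, which peaked at 56.9, and 6 of the 411 had both ranks at 50 or above. The leading region, on chromosome 6 from 93358310 to 93358651, had folds of 9.08 and 10.9 in shALKBH5 replicates 1 and 2 and lay 1.08 kb from the nearest shFTO peak. It had a peak of fold 9.77 in shGFP replicate 2 and none in shGFP replicate 1. The region on chromosome 22 from 18606723 to 18607546 followed, with folds of 9.04 and 9.93 in shALKBH5 and peaks of 7.36 and 14.5 in the shGFP lists. Next was the region on chromosome 7 from 2040528 to 2040837, at folds of 10.3 and 8.54 in shALKBH5 and 22.3 kb from any shFTO peak. All of these were thus also held by at least 1 control list.

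Other regions of this group were on chromosome 12 from 3812102 to 3812528 (folds of 8.42 and 9.81), on chromosome 17 from 8174896 to 8175316 (8.33 and 9.88) and on chromosome 7 from 149729638 to 149730107 (8.22 and 9.60). All of these had a peak in at least 1 shGFP list, and the first pair in both. Of the 12 leading regions, 2 had no peak in either shGFP list. The first was on chromosome 8 from 9777312 to 9777635, at folds of 8.49 and 8.09 and 115 kb from the nearest shFTO peak, and it was the most isolated of the 12. The second was on chromosome 11 from 65917852 to 65918310, at folds of 7.85 and 7.71, with an shFTO peak 0.092 kb away. The other 4 had folds between 7.71 and 9.99 in shALKBH5 and a peak in at least 1 shGFP list.

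Regions of shFTO cells alone had higher leading values. The poorer percentile peaked at 81.7, and 20 of the 661 had both ranks at 50 or above. The leading region lay on chromosome 13 from 68152352 to 68153142, with folds of 16.6 and 15.2 in shFTO replicates 1 and 2. No shALKBH5 peak was found within 922 kb of it, while both shGFP lists held it at folds of 24.0 and 21.5, the highest control values among the 12 leading regions. In this place the control hairpin and the FTO hairpin had a peak and the ALKBH5 hairpin had none in either list. The region on chromosome X from 133928716 to 133929200 had the same pattern, with folds of 11.1 and 10.7 in shFTO, 11.2 and 11.7 in shGFP, and no shALKBH5 peak within 174 kb.

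The region on chromosome 2 from 170914210 to 170914737 had folds of 10.5 and 13.6 in shFTO and lay 78.7 kb from any shALKBH5 peak. On chromosome 5 a region from 141957882 to 141958365 had 10.5 and 13.5, and on chromosome 1 a region from 68928802 to 68929320 had 10.3 and 17.7. These last were not isolated, with an shALKBH5 peak 0.668 kb and 0.268 kb away. The widest of the 12, on chromosome 8 from 83451262 to 83452975, had folds of 9.39 and 18.95 in shFTO with a covered width of 515 and 1707 bases. Its nearest shALKBH5 peak was 1163 kb away, and shGFP replicate 1 held it at a fold of 5.83. The other 6 had folds between 8.70 and 13.0 in shFTO, and each had an shALKBH5 peak between 0.098 and 1.21 kb away. Each of the 12 leading shFTO regions had a peak in at least 1 shGFP list.

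**Figure D3:**
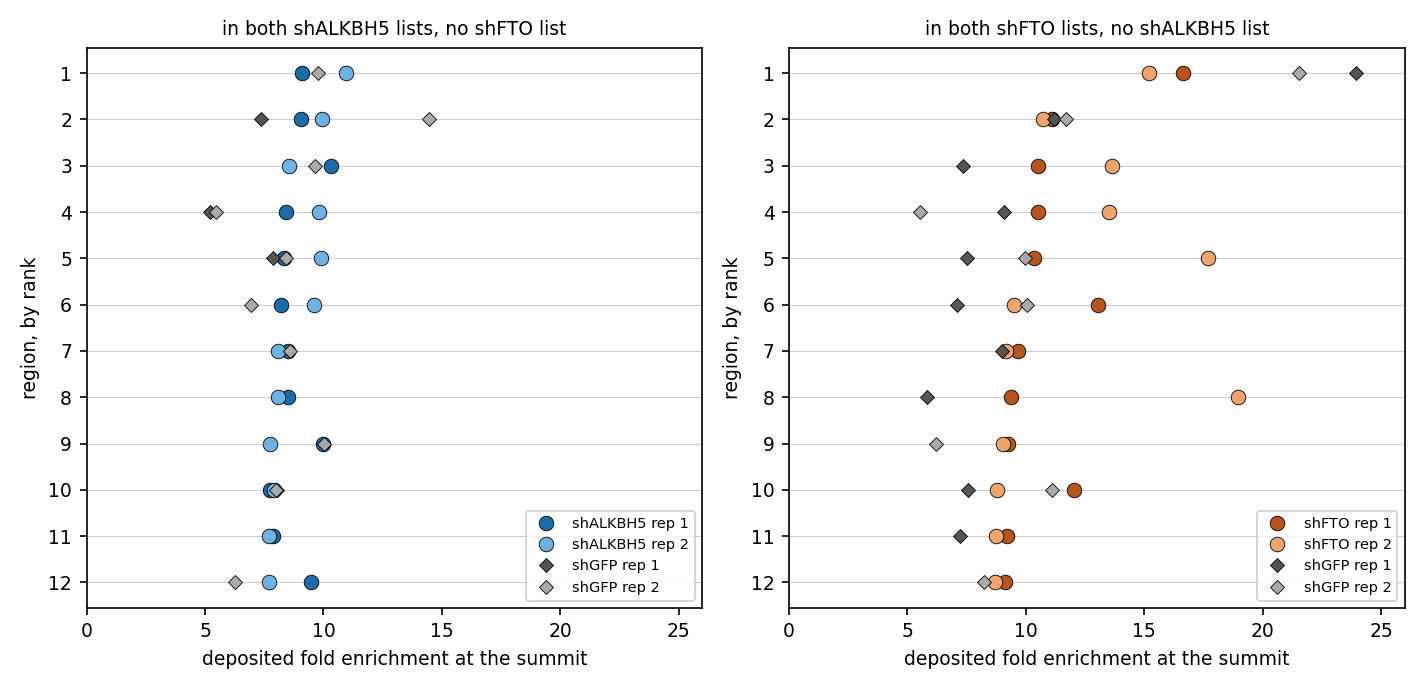
Fold enrichment of the 12 leading regions of each knockdown alone, in the order of the poorer percentile rank in its lists, with circles for the lists of the knockdown and diamonds for the shGFP lists that hold the region. The shALKBH5 regions (left) lie between 7.71 and 10.9, and the shFTO regions (right) between 8.70 and 18.95, with the first at 16.6 and 15.2 and its shGFP values at 24.0 and 21.5.

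The shGFP lists, which the choice of regions did not use, held the single-knockdown regions at similar shares. Of the 411 shALKBH5 regions, 119 (29.0%) had a peak in both shGFP lists, 161 (39.2%) in 1 and 131 (31.9%) in neither. Of the 661 shFTO regions, 199 (30.1%) had a peak in both, 244 (36.9%) in 1 and 218 (33.0%) in neither. Regions held by 1 list of each knockdown stood at 25.0% in both shGFP lists and 39.1% in neither, and those held by all 4 lists at 93.1% and 1.24%. By single list, shGFP replicate 1 held 42.8% of the shALKBH5 regions and 51.9% of the shFTO regions, and replicate 2 held 54.3% and 45.2%, so the direction turned with the control list used. Regions are not replicates and share their lists, so these shares are a description with no test.

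Single-knockdown regions were spread over the genome, at distances from shared regions like those of other classes. The median distance to the nearest region in all 4 lists was 28.5 kb for shALKBH5 regions and 27.7 kb for shFTO regions. It was 25.8 kb for regions in 1 list of each, and 31.4 and 29.1 kb for regions in a single shALKBH5 or shFTO list. Within 1 kb of a region in all 4 lists lay 13.1% of shALKBH5 regions and 13.5% of shFTO regions. For the other 3 classes, in the same order, the shares were 12.6%, 10.9% and 9.86%. A peak of the other knockdown lay within 1 kb of 96 shALKBH5 regions (23.4%) and 160 shFTO regions (24.2%), with no share of another class to set beside these. Within 100 bases the counts were 7 shALKBH5 regions and 8 shFTO regions. Regions of a class within 10 kb of each other formed 5 pairs in shALKBH5 and 19 pairs in shFTO, with no longer run. The classes differ in size and no other class was counted, so these counts do not show whether either class was clustered.

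Chromosomes 1 to 22 and X held shALKBH5 regions at 0.812% (chromosome 19, 10 regions) to 2.08% (chromosome 16, 23 regions) of all their regions, around the 1.56% of the whole. They held shFTO regions at 1.39% (chromosome 22, 9 regions) to 3.27% (chromosome X, 34 regions), around 2.51%. Chromosome X had 10 shALKBH5 regions against 34 shFTO regions, and chromosome 22 had 13 against 9. Of the 115 regions outside chromosomes 1 to 22, X and the mitochondrial genome, 6 were shALKBH5 regions (5.22%) and 3 were shFTO regions (2.61%). The shALKBH5 share was above that of every one of these chromosomes, but it rests on 6 regions and was not tested. The mitochondrial genome had 13 regions, of which 3 were in all 4 lists and 0 in either single-knockdown class.

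Among the 11409 regions in all 4 lists, no region passed the test for a difference in fold enrichment between shALKBH5 and shFTO. Fold enrichment was taken on the log2 scale, centred on the median of each list and compared with limma, a linear model that pools the spread over all regions. No region passed a Benjamini-Hochberg adjusted p of 0.05 in either direction (0%), and the smallest adjusted p was 0.581. Without adjustment 520 regions (4.56%) had a p below 0.05, 234 higher (2.05%) and 286 lower (2.51%) in shALKBH5. The differences, shALKBH5 minus shFTO, had a median of 0.01 on the log2 scale and ran from -0.58 to 0.57 between the 5th and 95th percentiles. For a typical region the 95% confidence interval reached 0.73 to either side, a factor of 1.66, before any adjustment for the number of regions. After adjustment a mean difference of 2-fold or more was not enough to pass, and none of the 77 such regions did. The differences had an SD of 0.35 over regions, beside a median SE of 0.37. The test does not show whether any of these 77 differences is real. Without shALKBH5 replicate 2, 2 regions passed as lower in shALKBH5; without any other list the count was 0 in each direction.

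The spread between knockdowns was the size of the spread within them. The log2 difference over the shared regions had an SD of 0.50 between shALKBH5 replicate 1 and shFTO replicate 1, 0.55 with shFTO replicate 2, and 0.48 and 0.47 between shALKBH5 replicate 2 and shFTO replicates 1 and 2. Between replicates it was 0.50 in shALKBH5 and 0.53 in shFTO. At least a 2-fold difference was found in 3.87% to 6.98% of regions between knockdowns, against 4.78% between the shALKBH5 replicates and 5.45% between the shFTO replicates. The correlation of log2 fold enrichment across regions was 0.75 to 0.81 between knockdowns, 0.79 within shALKBH5 and 0.77 within shFTO, over regions that share peak caller and sequence content. Across all 4 lists, both shALKBH5 values lay above both shFTO values in 1838 regions (16.1%) and below both in 1690 (14.8%), and the knockdowns overlapped in the remaining 7881 (69.1%). For 2 lists against 2, a separation in either direction has an exact permutation p of 0.333, so it cannot by itself show a difference.

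**Figure D4:**
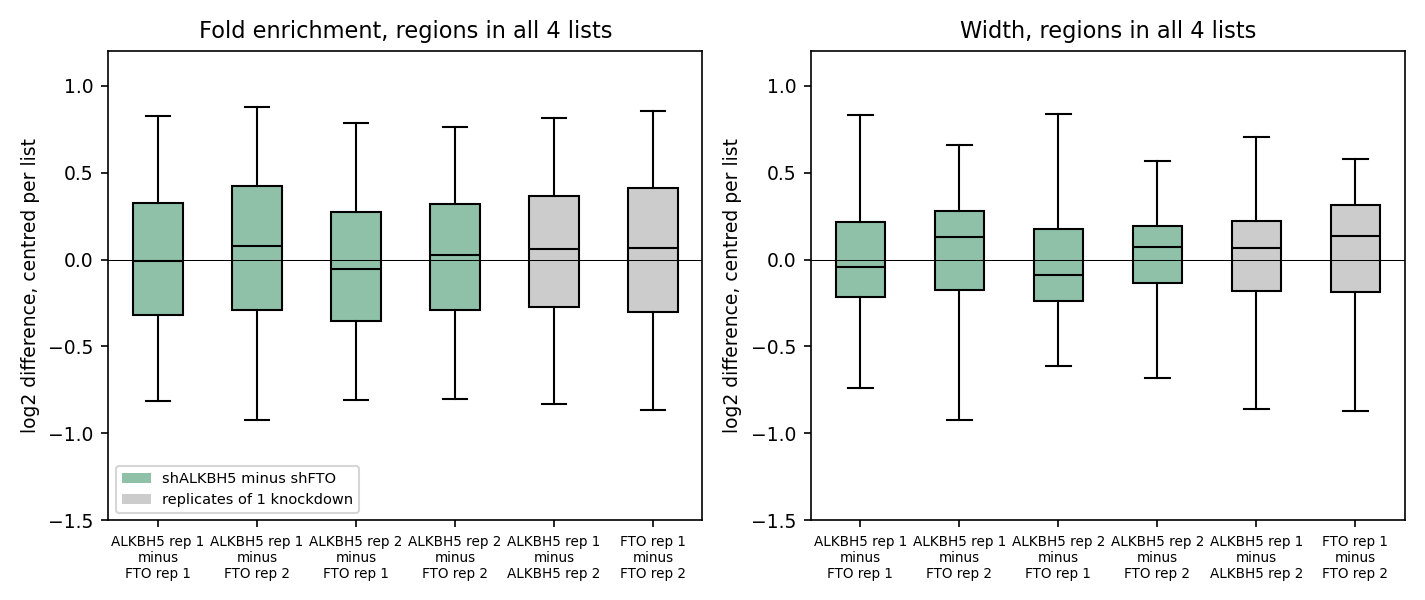
Log2 difference in fold enrichment (left) and in width (right) between each pair of lists over the 11409 regions in all 4 lists, centred per list, with the median, the quartiles and whiskers at the 5th and 95th percentiles. Pairs of different knockdowns (green, SD of 0.47 to 0.55 for fold enrichment) spread as far as pairs of replicates (grey, SD of 0.50 and 0.53).

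The regions with the largest differences are named as a description, since none passed the test. The first in favour of shALKBH5 was on chromosome 8 from 140439137 to 140439486. Its folds were 11.5 and 19.9 in shALKBH5 replicates 1 and 2, against 5.94 and 5.32 in shFTO replicates 1 and 2. This is 1.46 ± 0.38 on the log2 scale (difference and SE), and limma gave it an adjusted p of 0.581. On chromosome 6 from 31815839 to 31817445 the folds were 25.8 and 12.1 in shALKBH5 and 6.13 and 8.34 in shFTO. On chromosome 3 from 120989706 to 120991773 they were 14.8 and 35.8 in shALKBH5 and 8.19 and 11.8 in shFTO. In each of these the shALKBH5 replicates were farther apart than the shFTO replicates. That no value of one knockdown reached those of the other was a condition for naming them. The shGFP folds were 8.38 and 7.41 at the chromosome 8 region, between the values of the knockdowns. They were 8.33 and 15.8 at the chromosome 6 region. At the chromosome 3 region only shGFP replicate 1 had a peak, at a fold of 6.54, below both shFTO values.

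In the other direction the largest difference was on chromosome 18 from 1362495 to 1363221. Its folds were 9.04 and 5.79 in shALKBH5, against 18.6 and 20.8 in shFTO, and 25.8 and 19.1 in shGFP. This is -1.41 ± 0.37 on the log2 scale (difference and SE), again at an adjusted p of 0.581 by limma. The region on chromosome 2 from 102708028 to 102708657 had folds of 6.58 and 10.8 in shALKBH5, against 21.0 and 23.5 in shFTO, with shGFP at 22.5 and 23.6. At these places the shFTO and shGFP values overlapped and the shALKBH5 values were the low ones.

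The region on chromosome 1 from 25605137 to 25605702 had folds of 4.93 and 4.97 in shALKBH5, against 12.3 and 12.9 in shFTO. The replicates of each knockdown were close together, but 4.93 and 4.97 are the commonest fold values of the shALKBH5 lists, carried by 411 peaks of replicate 1 and 710 of replicate 2. The part of this coarse scale in their closeness was not tested. The adjusted p was 0.743 in limma, which used a spread pooled over all regions. Only 1 shGFP list held a peak there, at a fold of 4.998, near the shALKBH5 values. On chromosome 19 from 46058199 to 46058780 the folds were 3.29 and 4.97 in shALKBH5 and 8.93 and 12.9 in shFTO, with shGFP at 6.66 and 5.36. The other named regions ran from 1.12 to 1.30 on the log2 scale where shALKBH5 was above, and from -1.30 to -1.24 where it was below. The 77 regions with a mean difference of 2-fold or more (0.675%) were 31 higher and 46 lower in shALKBH5.

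**Figure D5:**
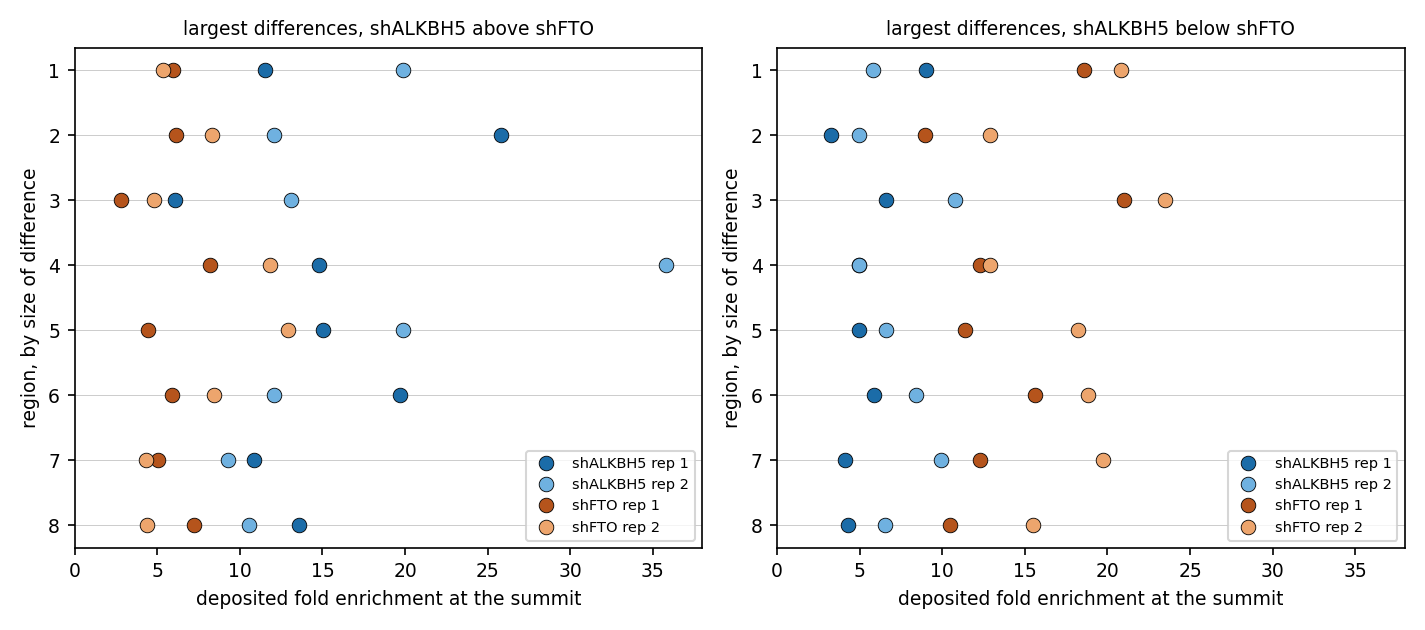
Fold enrichment in each list for the 8 regions in all 4 lists with the largest mean difference in each direction, among those whose knockdowns do not overlap. The first on the left has 11.5 and 19.9 in shALKBH5 against 5.94 and 5.32 in shFTO, and the first on the right has 9.04 and 5.79 in shALKBH5 against 18.6 and 20.8 in shFTO.

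Ranks within the shared regions gave the same picture as the fold values, from which they were taken, so they are not separate evidence. Each region was ranked from 0 to 100 within each list over the same 11409 regions, so list length did not enter. The median change in rank was 11.02 points between the shALKBH5 replicates, 12.4 between the shFTO replicates and 11.3 between lists of different knockdowns. Of the top 1000 regions of a list, 662 were shared between the shALKBH5 replicates, 581 between the shFTO replicates and 631 to 658 between lists of different knockdowns. The mean ranks of the knockdowns differed by 25 points or more in 877 regions (7.69%), 434 with the higher rank in shALKBH5 and 443 with the lower. There is no like count within a knockdown to set beside these.

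The top of the ranking was held in common, with 418 regions among the top 1000 of all 4 lists. The first, on chromosome 6 from 142752931 to 142754053, had folds of 76.1 and 73.3 in shALKBH5 and 75.2 and 80.6 in shFTO. The second, on chromosome 12 from 82895555 to 82896636, had 65.3 and 64.3 in shALKBH5 and 50.03 and 56.4 in shFTO. The next, on chromosome 17 from 82253251 to 82255727, had 57.7 and 61.4 in shALKBH5 and 59.4 and 52.2 in shFTO. The knockdowns overlapped at the regions on chromosomes 6 and 17, and on chromosome 12 both shALKBH5 values were the higher, by 0.32 on the log2 scale. Of the other 2 of the 5 strongest, the region on chromosome 4 from 87114252 to 87115411 had 49.96 and 54.7 in shALKBH5 and 56.5 and 54.2 in shFTO, and the knockdowns overlapped. The region on chromosome 7 from 6153619 to 6155195 had 53.7 and 63.3 in shALKBH5 and 53.4 and 50.7 in shFTO, so that both shALKBH5 values were again the higher, by 0.19 on the log2 scale.

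Width was compared in the same way, as the bases that a list's peaks covered in a shared region. The median was 663 and 720 bases in shALKBH5 and 607 and 768 bases in shFTO, so the shFTO replicates lay on either side of both shALKBH5 lists. No region passed in limma in either direction (0%), and the smallest adjusted p was 0.816. At an unadjusted p below 0.05 there were 524 (4.59%), of which 272 were wider (2.38%) and 252 narrower (2.21%) in shALKBH5. Both shALKBH5 widths lay above both shFTO widths in 1720 regions (15.1%) and below both in 1381 (12.1%), after centring. As for fold enrichment, such a separation cannot by itself show a difference. The 95% confidence interval of a typical region reached 0.60 to either side on the log2 scale, a factor of 1.51. Without shALKBH5 replicate 1, 8 regions passed as wider and 12 as narrower in shALKBH5, and without shALKBH5 replicate 2 14 and 92 did, while without either shFTO list the count stayed at 0.

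The largest width difference towards shALKBH5 among regions whose lists did not overlap was on chromosome 22 from 50584388 to 50586607. The peaks there covered 2054 and 1923 bases in shALKBH5, against 280 and 1304 bases in shFTO, so shFTO replicate 1 was the low value. On chromosome 9 from 83054688 to 83055867 they covered 1114 and 1180 bases in shALKBH5 and 278 and 458 bases in shFTO. The largest in the other direction was on chromosome 5 from 85246243 to 85247313, at 294 and 295 bases in shALKBH5, the shortest length of each list, against 802 and 1071 bases in shFTO. Its folds were 4.93 and 3.55 in shALKBH5 and 7.68 and 12.9 in shFTO, and neither shGFP list held it. In the chromosome 9 region shFTO replicate 1 was within 1 base of the shortest length of its list, and shFTO replicate 2 was not near it. Across shared regions the differences in width and in fold enrichment were correlated at 0.36, both being read from the same peaks.

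Summits lay as close between knockdowns as between replicates. Over the 9700 shared regions with exactly 1 peak in each list, the median distance between summits was 27 to 33 bases between lists of different knockdowns. It was 29 bases between the shALKBH5 replicates and 25 bases between the shFTO replicates. Summits within 50 bases of each other made up 61.0% to 66.2% of regions between knockdowns, 63.2% within shALKBH5 and 65.4% within shFTO. A shared region was split into several peaks in 5.40% and 7.35% of cases in shALKBH5 replicates 1 and 2, and in 8.77% and 3.77% in shFTO replicates 1 and 2, so the shFTO lists enclosed the shALKBH5 ones.

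The shared regions were also split into 4 equal groups by mean fold enrichment, from a median of 6.71 in the lowest group to 21.4 in the highest. The median log2 difference was 0.01 in the second group, 0.02 in the next and 0.03 in the highest, and in the lowest it was below 0 by less than 0.01. In the highest group both shALKBH5 values lay above both shFTO values in 16.8% of regions and below in 11.7%, against 15.4% and 16.3% in the lowest. The median difference by chromosome ran from -0.04 on chromosome X (400 regions) to 0.08 on chromosome 20 (268 regions). Neighbouring shared regions within 2 kb of each other, 1342 pairs, had differences of the same sign in 52.5% of pairs and a correlation of 0.10 across pairs.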

How the data were processed

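m6A immunoprecipitation of chromatin RNA was compared in shALKBH5 and shFTO HEK293T cells. The submitters' processing notes name MACS2 2.1.1 and HISAT2 2.1.0 among other tools, and hg38 as the only human build, without giving the role of each. The deposited lists have the narrowPeak layout of MACS2, with 1 list per replicate. In that layout the deposited fold enrichment is a ratio of the immunoprecipitated library to its control at the summit. Also deposited are, per peak, a p and a q as -log10 values, and a score that equals 10 times the -log10 q cut to a whole number. No deposited peak had a q above 0.05. Read depth is not in the lists, so no counting interval was made.

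Peaks of the 4 lists that overlapped by 1 base or more were merged with Python 3.11.15 and pandas 2.3.3. A list's value in a region is its highest fold and the bases its peaks cover. Log2 values were centred per list and tested with limma 3.58.1 in R 4.3.3 with a trend, shALKBH5 minus shFTO, with Benjamini-Hochberg adjustment over all shared regions at 0.05. The merging and the test were tested on simulated data. Regions were named by rule: per knockdown the 12 of best poorer percentile rank of fold, per direction the 8 shared regions with the largest difference and no overlap of the knockdowns, and the 5 strongest shared regions, of which the text gives a part. Gene lists that had been set for an annotated genome were not used here. The comparison and lists were chosen with earlier results of these data known. Alternatives were stricter q or fold, lists of equal length, wider merging, 50% coverage, main chromosomes, other scalings, regions with 1 peak per list, no trend, a replicate block and each list left out. The chromatin immunoprecipitation and mouse data were not used here.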

Additional observations from a re-analysis of the deposited data

How the results depend on the processing

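The counts of regions in both shALKBH5 lists and neither shFTO list (411), in both shFTO lists and neither shALKBH5 list (661) and in all 4 lists (11409) stayed within 1.5 times under a q of at most 0.01, a fold of at least 4, lists of equal length, merging within 100 bases, 50% coverage and the main chromosomes, with ranges of 403 to 502, 562 to 701 and 9024 to 11392. With each list left out in turn they ran from 593 to 2551, from 1037 to 4124 and from 11709 to 13061, because a class that rests on fewer lists is easier to enter. Of the 12 leading regions, 10 to 12 of shALKBH5 and 11 to 12 of shFTO were found again in their class under the alternatives that kept all lists. The limits on q and fold and the main chromosomes could not drop regions chosen for their high rank, so the 12 found there show nothing. Merging within 100 bases kept 11 of each class, and 50% coverage kept 10 of shALKBH5 and 11 of shFTO.

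The test of shared regions gave 0 calls for fold enrichment and for width without centring, with quantile normalisation, in the 9700 regions with 1 peak per list, in lists of equal length, without a trend and at a mean fold of at least 4. The replicate block also gave 0 calls in each direction, with 688 regions at an unadjusted p below 0.05 for fold enrichment and 795 for width. The replicate numbers are not stated to mark a shared batch. The difference between replicates 1 and 2 in shALKBH5 was correlated with that in shFTO across the 11409 shared regions. The correlation was 0.12 for fold enrichment and 0.16 for width. With a list left out, its knockdown keeps a single list that is assumed to vary like the other. For enrichment the calls then ran from 0 to 0 higher and from 0 to 2 lower in shALKBH5, the 2 without shALKBH5 replicate 2. For width they ran from 0 to 14 wider and from 0 to 92 narrower, with 8 and 12 without shALKBH5 replicate 1, 14 and 92 without shALKBH5 replicate 2, and 0 without either shFTO list. The cause was not tested. No named shared region changed direction in 330 recomputed values. These regions were chosen with no overlap of the knockdowns, so leaving out a list could not reverse them. The fits without a trend and with a replicate block return the same difference as the main fit. For those settings the absence of reversals therefore shows nothing about stability. Read depth is unknown, and list length limits what a missing peak can show.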
